A study of Mus musculus with 4 samples.

Results

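The 32 genes described here encode the folding, sensing and degradation machinery of the endoplasmic reticulum (ER): 5 sensors or sensor-linked transcription factors, 16 chaperones and folding factors, 9 factors of ER-associated degradation, and 2 further ER membrane proteins. They were taken by symbol from a table of 22186 genes, and all 32 were listed. RNA was sequenced from MC38, a mouse colon carcinoma line, stably carrying a construct (TetOn-CXCL14) in which a tetracycline-inducible promoter drives CXCL14, a secreted chemokine. Controls were 2 cultures of that line given the solvent PBS, and the treated group was 2 cultures given doxycycline, the inducer of the promoter, at 1 µg/mL. All 4 carried the construct and were harvested after 72 h, and the submitters describe the duplicate cultures as biological replicates. The design thus asked what changed when CXCL14 was induced, but none of the 4 libraries came from doxycycline-treated cells lacking the construct, so effects of CXCL14 and of doxycycline itself cannot be told apart.

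Proteins bound for secretion or for membranes fold in the ER with the help of chaperones, lectins and disulfide isomerases. When unfolded proteins build up, 3 membrane sensors, IRE1, PERK and ATF6, start the unfolded protein response. IRE1 splices the mRNA of the transcription factor XBP1, PERK slows translation and favours ATF4, and ATF6 travels to the Golgi, where proteases release its active fragment. The response raises chaperones and the degradation pathway, which hands misfolded proteins back to the cytosol for the proteasome. Splicing, phosphorylation and cleavage are how these sensors are switched on, and gene-level RNA measures none of these.

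Values are in TPM, a length-scaled share of the transcripts in a library, so levels can be set side by side between genes. The tables hold no read counts and the depth of each library is unknown. Cxcl14 was at 27.3 and 29.2 TPM in control cultures and at 385 and 391 TPM after doxycycline, in the direction of the labels. Libraries differed little within a group (SD of the log2 difference between libraries 0.18 and 0.16) and more between groups (0.69 to 0.74). The 9 colon epithelial markers looked up, among them Epcam, Krt8 and Cdh1, were below 1 TPM in every library, as were 4 of 4 endothelial markers and the macrophage markers Ptprc, Adgre1 and Csf1r. Fibroblast markers, of which Col1a2, Lum and Fap were below 1 TPM throughout, summed to 3478 and 3670 TPM in control cultures and 551 and 514 TPM after doxycycline. Dcn made up most of these sums, with 3075 and 3259 TPM, then 485 and 464 TPM, followed by Pdgfra with 350 and 358 TPM, then 34.1 and 26.8 TPM, while Col1a1 did not pass the test (2.43 and 2.14 TPM, then 3.39 and 2.02 TPM). The 6 macrophage markers summed to 48.0 and 46.8 TPM, then 13.5 and 15.3 TPM, of which Cd14 made up 36.0 and 36.5 TPM, then 6.01 and 6.40 TPM, and Lyz2 did not pass (3.76 and 2.99 TPM, then 2.65 and 3.78 TPM). The part of these marker shifts in the results below was not tested. In bulk RNA, fewer cells of a kind and less RNA per cell cannot be told apart.

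Several of the genes carry in their promoters the ER stress response element (ERSE), the site through which NF-Y together with ATF6 or XBP1 is known to act. The 250 bases before each start site were searched on both strands in the RefSeq promoter sequences of GRCm38.p6, in which 27 of the 32 genes matched by symbol. ERSE was searched as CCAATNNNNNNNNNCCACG and found for 9 of these 27 genes, in 9 of their 28 promoters. Of 32851 promoters of the same length, those of the set included, 37 (0.113%) held it. ERSE was searched as a known site of this kind of gene, so these shares describe the promoters and were not tested. ERSE-II, a compact variant searched as ATTGGNCCACG, was found for Herpud1, against 0.0304% of promoters. The matches are shown for the 10 of these 27 genes that held either element, whichever way their RNA moved. Each stretch runs 5′ to 3′ on the gene's strand with the fixed bases of the match in capitals. A gene whose match reads CGTGG before ATTGG holds it on the opposite strand.
Hspa5 (chr2:34772013-34772055, + strand): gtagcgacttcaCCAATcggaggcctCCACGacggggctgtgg
Herpud1 (chr8:94386365-94386399, + strand): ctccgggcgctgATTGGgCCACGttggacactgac
Hsp90b1 (chr10:86705521-86705668, - strand): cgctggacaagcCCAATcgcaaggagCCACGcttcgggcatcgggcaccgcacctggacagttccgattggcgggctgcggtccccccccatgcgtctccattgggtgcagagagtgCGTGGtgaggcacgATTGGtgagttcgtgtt
Canx (chr11:50325788-50325830, - strand): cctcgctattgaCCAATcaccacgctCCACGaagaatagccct
Calr (chr8:84847063-84847105, - strand): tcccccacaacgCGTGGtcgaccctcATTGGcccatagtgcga
Pdia6 (chr12:17266479-17266521, + strand): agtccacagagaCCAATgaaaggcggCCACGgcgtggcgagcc
Creld2 (chr15:88819508-88819550, + strand): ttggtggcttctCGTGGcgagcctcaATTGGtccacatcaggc
Dnajc3 (chr14:118937815-118937857, + strand): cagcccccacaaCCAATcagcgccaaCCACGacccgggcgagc
Syvn1 (chr19:6046520-6046562, + strand): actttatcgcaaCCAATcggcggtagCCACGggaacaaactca
Derl3 (chr10:75893230-75893272, + strand): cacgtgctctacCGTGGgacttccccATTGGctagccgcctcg

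The 10 genes with these elements did not move as a block. Hspa5 and Herpud1 rose, Calr, Pdia6, Creld2, Dnajc3 and Syvn1 fell, Hsp90b1 and Canx did not pass the test, and Derl3 was too low to be tested. Among the 17 genes whose searched promoter held neither exact match, 7 rose, 8 fell and 2 did not pass. Of the 5 genes without a promoter sequence, 3 rose, 1 fell and 1 did not pass. Of all tested genes 29.0% rose and 35.4% fell. The UPRE, searched as TGACGTGG, was found for 0 of the 27 genes and in 0.563% of all promoters. A composite site of ATF4, searched as TGATGNAA, was found only for Herpud1 among the 27, and in 3.45% of all promoters. A match describes letters in a window and does not show that a factor binds there. A missing exact match does not show that a gene lacks such a site.

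Most of the 32 genes differed between doxycycline and control cultures, in both directions. Of the 31 tested (those with a mean of at least 1 TPM), 12 rose and 14 fell at a Benjamini-Hochberg adjusted p under 0.05 with limma, fitted across all 11359 genes tested, of which 29.0% rose and 35.4% fell. Together 26 of 31 were called, where 64.4% of all tested genes were. The median log2 change was -0.06 over the 31 genes and -0.04 over all tested genes. With no filter on low values 10 rose and 8 fell. The 4 genes that changed by at least log2 1 in size were Wfs1, Hspa5 and Atf6, which rose, and Eif2ak3, which fell, and 11.2% of all tested genes changed by that much. For 29 of the 31 genes the libraries of the 2 groups did not overlap, as for 82.7% of all tested genes. With 4 libraries the smallest p of a two-sided exact permutation test is 0.33, so each call rests on limma's variance estimate, which borrows from all genes.

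**Figure D1:**
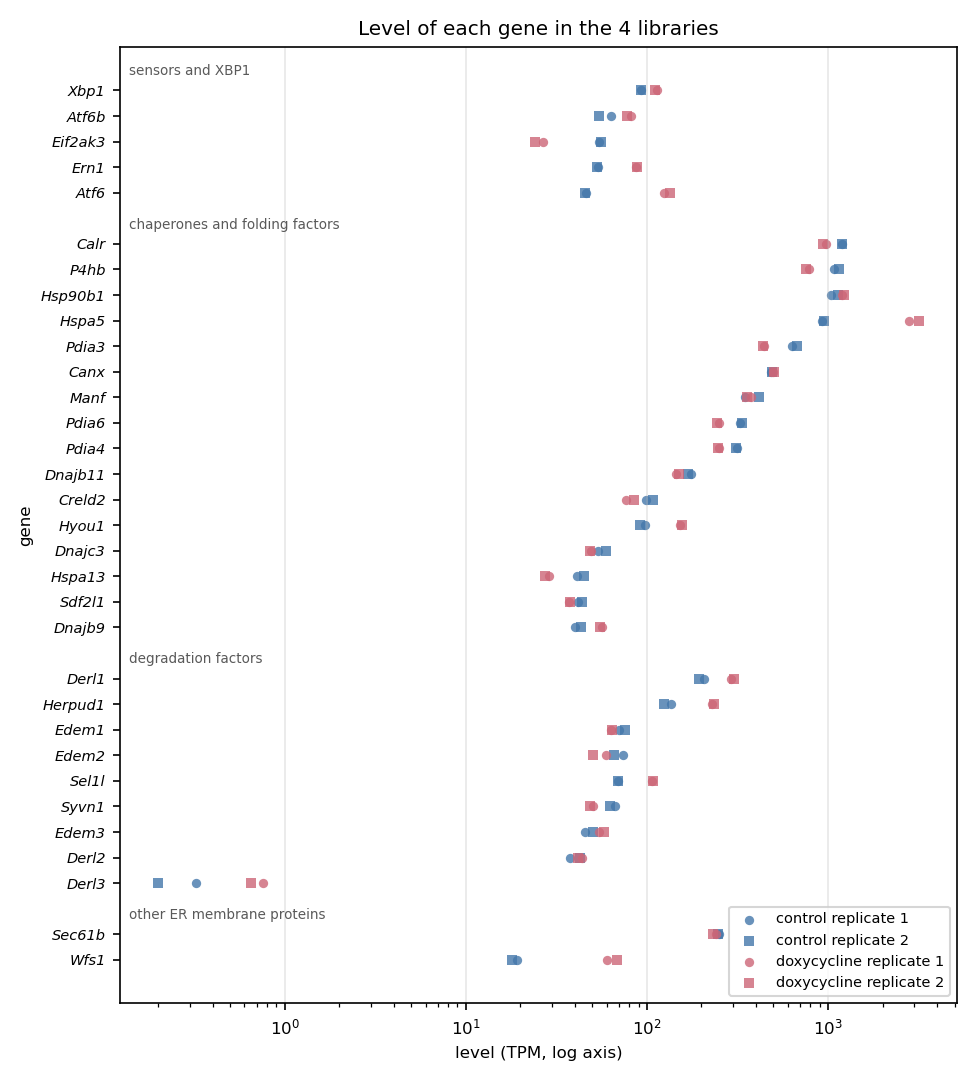
Level of each of the 32 genes in TPM (log axis) in the 2 control (blue) and 2 doxycycline (red) libraries, grouped by role and ordered by control level. Hspa5, Atf6 and Wfs1 stand far to the right of their controls, Eif2ak3 far to the left, and Derl3 is below 1 TPM in every library.

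Of the sensor genes and Xbp1, 4 of 5 rose (median log2 change 0.43), where 29.0% of all tested genes did. Eif2ak3, which encodes PERK, fell, as did 35.4% of all tested genes. Atf6, the precursor of the ATF6 transcription factor, was at 46.3 and 45.6 TPM in control cultures and at 124 and 135 TPM after doxycycline. This was a 2.81-fold rise in mean TPM (log2 fold change 1.47 with SE 0.07, limma adjusted p = 2.1e-07), and the 129th largest rise of all tested genes. Its paralog Atf6b, which encodes a related ER membrane factor with weaker activity, was at 63.8 and 54.7 TPM and then 81.6 and 77.9 TPM. The rise of Atf6b was smaller (log2 fold change 0.43 with SE 0.08, limma adjusted p = 0.0014) and was not called with no filter on low values (adjusted p = 0.10). The ratio of Atf6 to Atf6b within a library was 0.727 and 0.835 in control cultures and 1.52 and 1.73 after doxycycline, so the order of the paralogs by level changed.

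Ern1, which encodes the kinase and ribonuclease IRE1, rose from 53.5 and 52.9 TPM to 87.6 and 88.0 TPM. The 2 libraries of each group lay close together, and the log2 fold change was 0.71 (SE 0.06, limma adjusted p = 8.7e-06). Xbp1, whose mRNA is the substrate of IRE1, was at 93.2 and 92.3 TPM and then 114 and 111 TPM. This was a modest rise (log2 fold change 0.27 with SE 0.06, limma adjusted p = 0.0029), and the table does not separate its spliced from its unspliced form. Eif2ak3 was at 54.2 and 56.2 TPM in control cultures and at 26.6 and 24.3 TPM after doxycycline. This was a 2.17-fold fall in mean TPM (log2 fold change -1.09 with SE 0.08, limma adjusted p = 2.4e-06). An exon of Eif2ak3 overlaps Gm43292 on the other strand in GENCODE M21, and reads of the 2 may be mixed. In the controls Ern1 and Eif2ak3 stood at nearly the same level, with ratios within a library of 0.988 and 0.941. After doxycycline these ratios were 3.29 and 3.63.

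Of the chaperones 3 of 16 rose and 10 fell (median log2 change -0.21), beside 29.0% and 35.4% of all tested genes. With no filter on low values 6 fell. Hspa5 encodes BiP, the HSP70 of the ER, which binds unfolded chains and holds the sensors inactive. It was at 923 and 951 TPM in control cultures and at 2803 and 3179 TPM after doxycycline. No other chaperone of the set moved as far: its mean rose 3.19-fold (log2 fold change 1.67 with SE 0.08, limma adjusted p = 3.2e-07). Hspa5 ranked 92nd and 89th by TPM among all listed genes in control cultures and 17th and 15th after doxycycline. It was the 4th most abundant of the 32 in both controls and the most abundant in both treated libraries.

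The higher total of the set after doxycycline rested on Hspa5. The TPM of all 32 genes summed to 8177 and 8464 in control cultures and 9759 and 10091 after doxycycline. Without Hspa5 the sums were 7254 and 7514 TPM in control cultures and 6957 and 6913 TPM after doxycycline, so the treated libraries then lay below the controls. The share of Hspa5 in the summed TPM of the set went from 11.3% and 11.2% to 28.7% and 31.5%. Summed levels of the sensor group (311 and 302 TPM, then 434 and 435 TPM) and of the degradation group (706 and 686 TPM, then 899 and 908 TPM) were also higher with doxycycline.

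**Figure D2:**
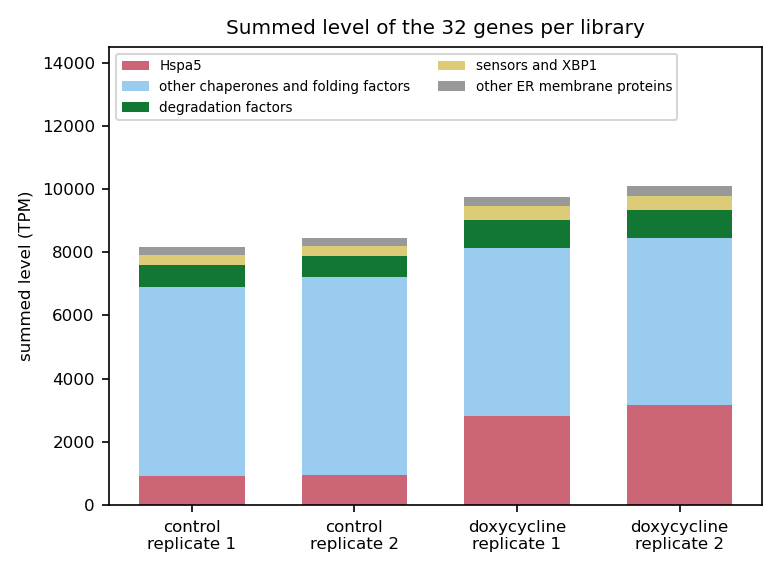
Summed TPM of the 32 genes in each library, stacked by Hspa5, the other chaperones and folding factors, degradation factors, sensors with Xbp1, and the other ER membrane proteins. The Hspa5 segment grows from 923 and 951 TPM to 2803 and 3179 TPM, while the segment of the other chaperones is lower in both doxycycline libraries.

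Of the partners of BiP, Hyou1, an HSP110-type nucleotide exchange factor, was at 97.8 and 91.9 TPM and then 152 and 157 TPM (log2 fold change 0.69 with SE 0.06, limma adjusted p = 1.1e-05). Dnajb9, a J-domain cochaperone that recruits BiP to IRE1, was at 40.0 and 43.3 TPM and then 56.6 and 55.1 TPM (log2 fold change 0.42). For both genes the treated libraries lay above both controls, but 82.7% of all tested genes had groups without overlap. Other cochaperones went the other way: Dnajb11 was at 175 and 169 TPM and then 145 and 150 TPM, a fall of log2 fold change -0.22 whose call was lost without DOX replicate 1 (limma adjusted p = 0.0092 with all libraries, 0.076 without it). Dnajc3, also known as P58IPK, an inhibitor of PERK, was at 53.9 and 59.2 TPM and then 49.0 and 48.7 TPM (log2 fold change -0.21, limma adjusted p = 0.029). Sdf2l1, a component of BiP complexes, was at 41.5 and 44.0 TPM and then 37.1 and 37.6 TPM (log2 fold change -0.19, limma adjusted p = 0.038). The call of Dnajc3 was lost in 7 of 14 alternative settings and that of Sdf2l1 in 8. For both these include no filter on low values, median-of-ratios scaling, quantile normalization and eBayes without trend, and for Sdf2l1 also the FPKM table. Both calls were also lost without control replicate 2 (limma adjusted p = 0.14 for both), without DOX replicate 1 (0.090 and 0.16) and without DOX replicate 2 (0.11 and 0.12).

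Hspa13, a further ER-associated HSP70, fell from 41.3 and 45.1 TPM to 28.7 and 27.5 TPM (log2 fold change -0.60 with SE 0.08, limma adjusted p = 1.1e-04). It moved opposite to Hspa5, and the ratio of Hspa5 to Hspa13 was 22.3 and 21.1 in control cultures and 97.7 and 116 after doxycycline. Hsp90b1, the HSP90 of the ER known as GRP94, is often raised together with BiP in ER stress. It was at 1045 and 1137 TPM and then 1194 and 1227 TPM, a log2 fold change of 0.15 (95% interval -0.01 to 0.31) that did not pass (limma adjusted p = 0.092). Hsp90b1 passed as higher under median-of-ratios scaling (adjusted p = 0.035), under quantile normalization (0.0083) and without control replicate 2 (0.023). Within a library the ratio of Hspa5 to Hsp90b1 was 0.884 and 0.836 in control cultures and 2.35 and 2.59 after doxycycline.

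All 4 protein disulfide isomerases of the set fell, where 35.4% of all tested genes did. These isomerases form and reshuffle disulfide bonds. P4hb, the founding member PDI, was at 1084 and 1146 TPM and then 784 and 753 TPM (log2 fold change -0.54 with SE 0.07, limma adjusted p = 1.0e-04). Pdia3, which works with the lectin chaperones, was at 634 and 672 TPM and then 446 and 439 TPM (log2 fold change -0.56 with SE 0.06, limma adjusted p = 4.8e-05). Pdia6 went from 325 and 334 TPM to 250 and 245 TPM (log2 fold change -0.41) and Pdia4 from 314 and 311 TPM to 251 and 246 TPM (log2 fold change -0.33). In each of the 4 genes both treated libraries lay below both controls, but the groups did not overlap for 82.7% of all tested genes. The calls held in all 14 alternative settings. Exons of Pdia3, Pdia4 and Pdia6 overlap those of other genes, and reads may be mixed.

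Calreticulin and calnexin are paired lectin chaperones that bind sugar-tagged glycoproteins, the former soluble and the latter in the membrane. Calr was at 1189 and 1193 TPM and then 981 and 939 TPM (log2 fold change -0.31 with SE 0.07, limma adjusted p = 0.0026), and was not called with no filter on low values (adjusted p = 0.060). Canx stood at 484 and 492 TPM in control cultures and 497 and 503 TPM after doxycycline, which did not pass (log2 fold change 0.04, 95% interval -0.10 to 0.17) and was -0.04 under quantile normalization. The ratio of Calr to Canx was 2.46 and 2.42 in control cultures and 1.97 and 1.87 after doxycycline. Creld2, an ER-resident stress-induced protein, was at 98.8 and 109 TPM and then 76.9 and 84.5 TPM (log2 fold change -0.36, limma adjusted p = 0.0022), and was not called with no filter on low values (adjusted p = 0.10). Manf, a secreted factor that also binds BiP, was at 346 and 416 TPM and then 374 and 356 TPM. Its groups overlapped and it did not pass (log2 fold change -0.06, limma adjusted p = 0.59). Without control replicate 1 Manf was called lower (log2 fold change -0.19, adjusted p = 0.038), and without control replicate 2 its log2 fold change was 0.08.

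**Figure D3:**
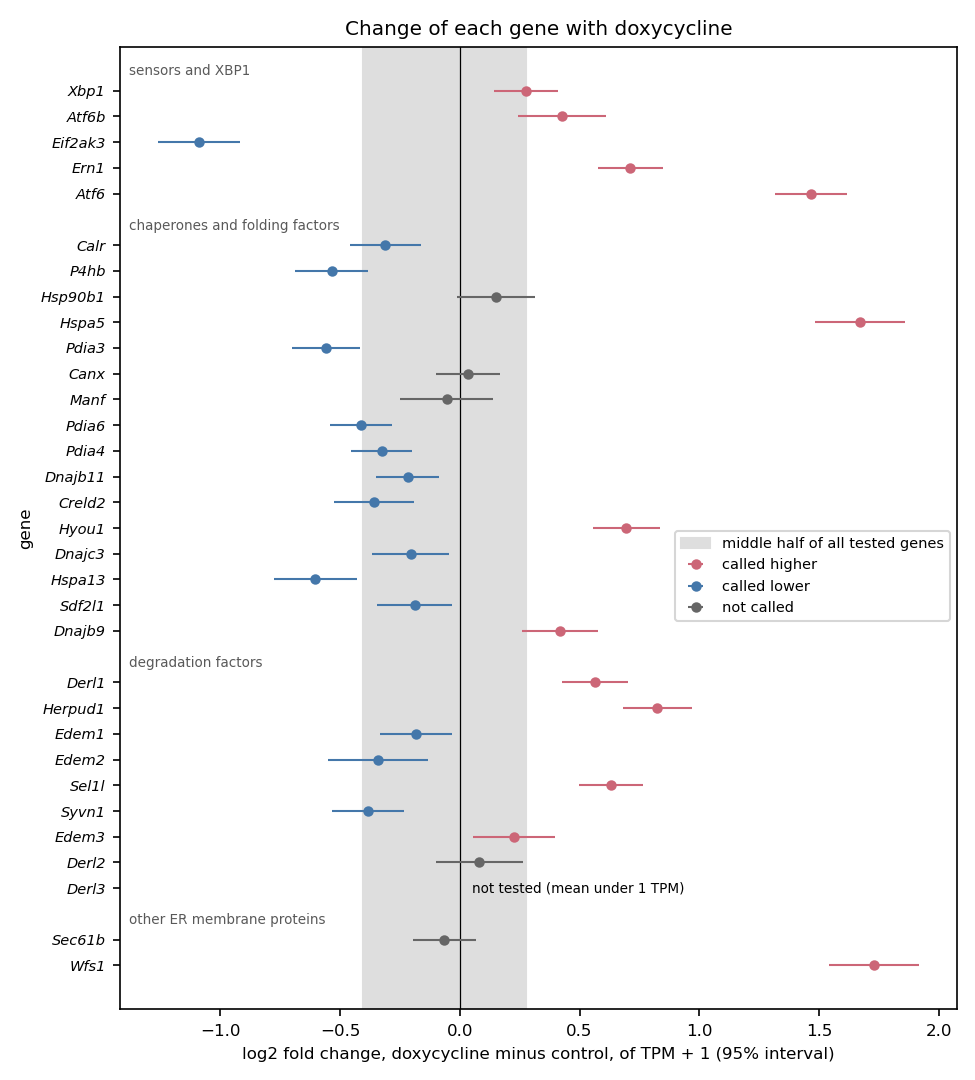
Log2 fold change (doxycycline minus control, of TPM + 1) of each gene with its 95% interval, grouped by role in the order of control level. Red marks genes called higher, blue lower and grey not called, and the shaded band holds the middle 50% of all tested genes; Wfs1, Hspa5 and Atf6 lie farthest right and Eif2ak3 farthest left.

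Of the degradation factors, 4 of the 8 tested rose and 3 fell (median log2 change 0.15), beside 29.0% and 35.4% of all tested genes. Herpud1, which organises the retrotranslocation complex and is a known target of both ATF4 and ATF6, was at 137 and 125 TPM and then 230 and 234 TPM. This was the largest rise of the group (log2 fold change 0.82 with SE 0.06, limma adjusted p = 4.9e-06). Sel1l, the adaptor that brings substrates to the ubiquitin ligase HRD1, rose from 69.4 and 68.9 TPM to 107 and 108 TPM (log2 fold change 0.63 with SE 0.06, limma adjusted p = 1.6e-05). Syvn1, which encodes HRD1 itself, fell from 66.9 and 62.8 TPM to 50.2 and 48.7 TPM (log2 fold change -0.38 with SE 0.07, limma adjusted p = 8.2e-04). Syvn1 overlaps an exon of Mrpl49 on the other strand, with the same limit. The 2 partners were near equal in the controls, with a ratio of Sel1l to Syvn1 of 1.04 and 1.10, and at 2.13 and 2.22 after doxycycline.

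The derlins are membrane proteins of the retrotranslocation channel. Derl1 was at 206 and 194 TPM and then 290 and 302 TPM (log2 fold change 0.56 with SE 0.06, limma adjusted p = 4.1e-05). Derl2 was at 37.8 and 43.0 TPM and then 43.6 and 41.7 TPM, with overlapping groups and no call (log2 fold change 0.08, 95% interval -0.10 to 0.26), and at -0.01 without control replicate 1. Derl3 was listed at 0.325 and 0.201 TPM in control cultures and 0.764 and 0.654 TPM after doxycycline. Its mean was under the 1 TPM needed for a test.

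The EDEM proteins trim mannose from misfolded glycoproteins and mark them for disposal, and their genes split. Edem3 was at 45.3 and 50.5 TPM and then 54.5 and 58.0 TPM (log2 fold change 0.23, limma adjusted p = 0.025). Edem1 was at 70.1 and 75.3 TPM and then 63.2 and 64.5 TPM (log2 fold change -0.18, limma adjusted p = 0.034), and Edem2 at 73.6 and 65.9 TPM and then 59.8 and 50.3 TPM (log2 fold change -0.34, limma adjusted p = 0.0097). These calls depended on the processing and on single libraries. With no filter on low values all 3 were lost, those of Edem1 and Edem3 also with eBayes without trend, and that of Edem1 under median-of-ratios scaling. The call of Edem3 was lost without control replicate 1 (limma adjusted p = 0.14) or DOX replicate 2 (0.15), and that of Edem2 without the same libraries (0.093 and 0.078). That of Edem1 was lost without control replicate 2 (0.14), DOX replicate 1 (0.15) or DOX replicate 2 (0.097). Without DOX replicate 2 only 1 degradation factor, Syvn1, was called lower, as with no filter on low values.

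**Figure D4:**
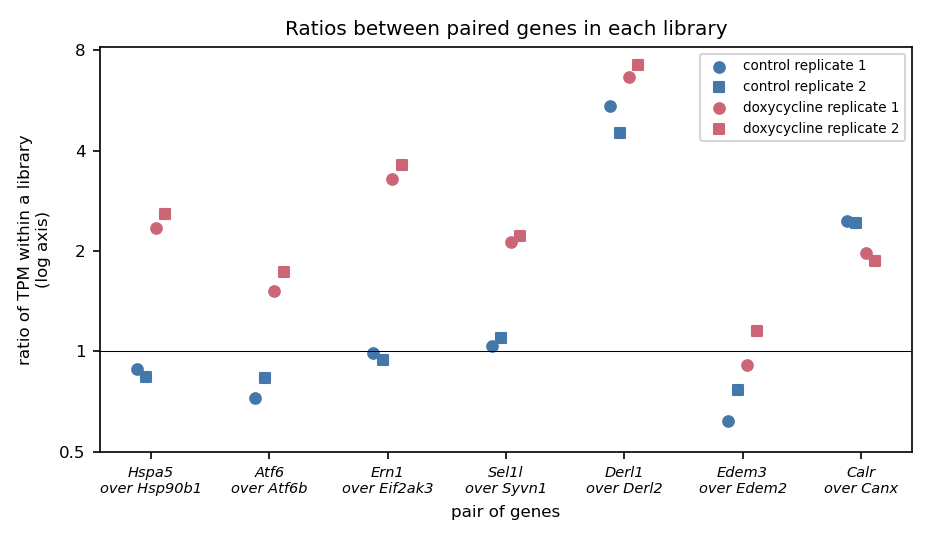
Ratio of TPM between 2 genes within each library (log axis), for 7 pairs of partners or paralogs, control in blue and doxycycline in red. In the pairs of Hspa5 with Hsp90b1, Ern1 with Eif2ak3, and Sel1l with Syvn1 the ratio is near 1 in control cultures and above 2 after doxycycline.

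The ratios of the 11 pairs computed describe partners within a library and were not tested. For Edem1 to Edem2 the groups overlapped (0.952 and 1.14, then 1.06 and 1.28). Edem3 to Edem2 went from 0.616 and 0.766 to 0.912 and 1.15.

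Wfs1 rose most of all 31 tested genes of the set. It encodes wolframin, an ER membrane protein linked to calcium balance and to the restraint of ATF6. Its level was 19.3 and 18.1 TPM in control cultures and 60.2 and 68.3 TPM after doxycycline. This was a 3.44-fold rise in mean TPM (log2 fold change 1.73 with SE 0.08, limma adjusted p = 3.0e-07), ranking 84th among rises of all tested genes, next to Hspa5 at rank 90. Sec61b, a subunit of the channel through which new chains enter the ER, was at 250 and 247 TPM and then 242 and 233 TPM and did not pass (log2 fold change -0.07, 95% interval -0.20 to 0.07).

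Genes that act beside this set were read from 10 further ER lists. These lists were chosen with earlier results of these data known, so their counts are descriptive and are no independent support. Of 157 tested genes in these lists 56 rose and 41 fell, where 29.0% and 35.4% of all tested genes did, and their median log2 change was 0.04. With no filter on low values 44 rose and 22 fell. Of the genes named below Fkbp11, Ero1b, Ssr4, Mogs, Pdgfrb, Pmp22, Bloc1s1, Eif2ak2, Mbtps2 and Creb3 were then not called. Among 16 tested genes listed for the PERK branch and the integrated stress response, 13 rose and 2 fell, with a median log2 change of 1.39 beside the fall of Eif2ak3. Ppp1r15a, which encodes the stress-induced phosphatase subunit GADD34 that reverses PERK signalling, was at 97.1 and 78.0 TPM and then 428 and 464 TPM (log2 fold change 2.34). Trib3, a pseudokinase that restrains ATF4, was at 142 and 113 TPM and then 557 and 594 TPM (2.17). Atf3 and Chac1 rose further (log2 fold change 2.72 and 2.37). Named after their values were seen, Atf4 itself was at 651 and 619 TPM and then 1406 and 1510 TPM (log2 fold change 1.20), and Ddit3, which encodes CHOP, at 255 and 231 TPM and then 595 and 670 TPM (1.38). None of the 3 other eIF2α kinases in the list, likewise named after their values were seen, rose: Eif2ak4 and Eif2ak2 fell (log2 fold change -0.28 and -0.25), and Eif2ak1 did not pass (-0.15, limma adjusted p = 0.054). The call of Eif2ak2 was lost with no filter and without control replicate 2 or DOX replicate 2, which left 1 gene of the list lower, with a limma adjusted p of up to 0.13 over all alternatives.

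Of 8 reported substrates of IRE1-dependent RNA decay 2 rose and 6 fell (median log2 change -0.52), beside 29.0% and 35.4% of all tested genes. With no filter on low values 1 rose and 2 fell, and the number higher was 0 without DOX replicate 1 and 1 without DOX replicate 2. Col6a1 fell most (387 and 381 TPM, then 117 and 92.9 TPM, log2 fold change -1.87), followed by Pdgfrb, Pmp22 and Scara3 (-0.998, -0.69 and -0.69). Bloc1s1, the substrate most often used, was named after its values were seen and fell by 0.24 on the log2 scale. Pdgfrb is also in the fibroblast list whose sum fell, and its part in this count was not tested. Among listed membrane-bound transcription factors and proteases that cut such factors, 3 of 6 rose and 1 fell (median log2 change 0.06). The gene that fell was Creb3l2 (84.8 and 86.1 TPM, then 32.9 and 30.1 TPM, log2 fold change -1.41). Nfe2l1 rose (log2 fold change 0.74), and so did Mbtps2, which encodes the site-2 protease (0.22), and Creb3 (0.17). The call of Mbtps2 was lost in 4 of 14 alternative settings and that of Creb3 in 6, so that 1 gene of this list was higher without DOX replicate 1, without DOX replicate 2 or with no filter. Without DOX replicate 1 the number lower was 2.

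Of further chaperones and cochaperones 4 of 25 rose and 10 fell (median log2 change -0.09), beside 29.0% and 35.4% of all tested genes. With no filter on low values 3 of them fell. Fkbp14, a prolyl isomerase, fell by 1.16 and Rcn3, a calcium-binding protein, by 0.76 on the log2 scale, while Fkbp11 and Cnpy2 rose (0.90 and 0.77). Of the oxidoreductases 4 of 18 rose and 8 fell (median log2 change -0.05), and 5 fell with no filter. Ero1a, an oxidase that recharges PDI, rose from 117 and 127 TPM to 235 and 272 TPM (log2 fold change 1.05, limma adjusted p = 4.5e-06), opposite to P4hb. Ero1b of the same list, named after its values were seen, fell from 9.49 and 10.6 TPM to 6.49 and 5.66 TPM (log2 fold change -0.65). Prdx4, an ER peroxiredoxin that can also recharge PDI, fell from 247 and 248 TPM to 132 and 127 TPM (log2 fold change -0.92). Tmx2 rose (0.79) and Tmx4 fell (-0.74).

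Of 23 other degradation factors 14 were not called, and of 24 translocon genes 12, where 64.4% of all tested genes were called. Of the other degradation factors 8 rose and 1 fell (median log2 change 0.06), beside 29.0% and 35.4% of all tested genes. The number lower was 0 without control replicate 1 or with no filter, and 2 with the replicate block. Rhbdd1, a rhomboid protease of the ER membrane, rose from 53.0 and 50.7 TPM to 133 and 143 TPM (log2 fold change 1.39), and Ube2g2, the ubiquitin-conjugating enzyme that serves HRD1 and gp78, from 136 and 121 TPM to 307 and 338 TPM (1.32). Aup1, which recruits Ube2g2 to lipid droplets and the ER, rose by a log2 fold change of 0.79. In the translocon list 9 of 24 rose and 3 fell (median log2 change 0.06; 5 fell without control replicate 1), led by Ssr2 (log2 fold change 0.67), Tram2 (-0.60), Tram1 (-0.52) and Ssr4 (0.52). In the N-glycosylation list 8 of 18 rose and 4 fell (median log2 change 0.12), led by Krtcap2, a subunit of the oligosaccharyltransferase (275 and 258 TPM, then 548 and 593 TPM, log2 fold change 1.10), Tusc3 (-0.66), Stt3a (0.51) and Mogs (0.48). In that list the number lower was 1 without control replicate 1, without DOX replicate 2, under median-of-ratios scaling or with eBayes without trend, and 2 without DOX replicate 1. With no filter 5 rose and 2 fell.

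**Figure D5:**
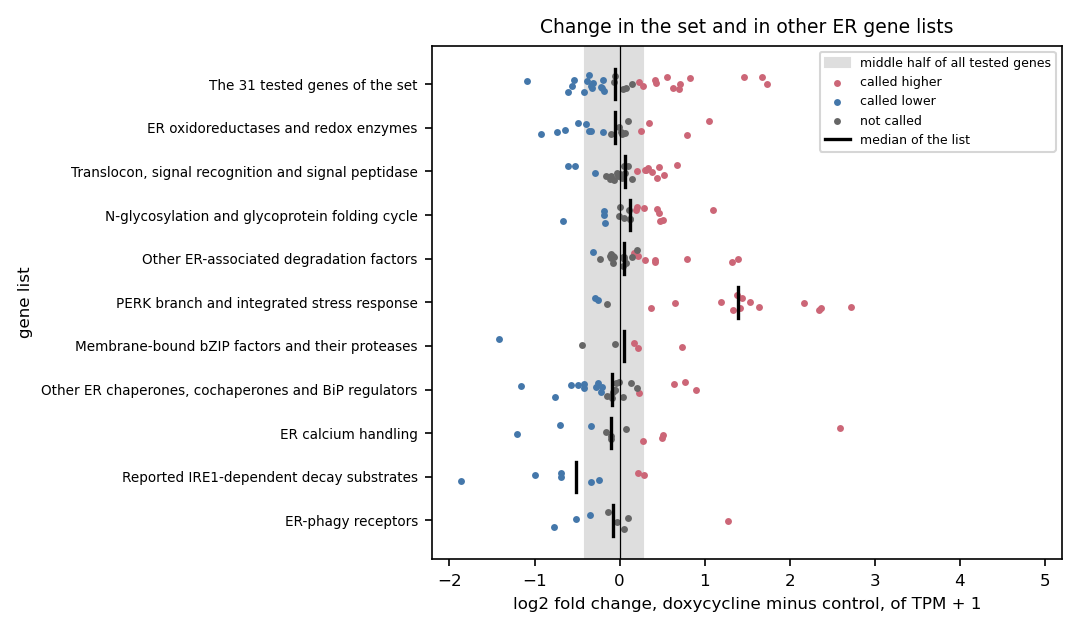
Log2 fold change (doxycycline minus control, of TPM + 1) of each tested gene of the set and of 10 other ER gene lists, coloured by call, with the median of each list as a black bar and the middle 50% of all tested genes shaded. The list of the PERK branch and integrated stress response has its median at 1.39, while the set itself has its median at -0.06 with genes spread to both sides. The set and the lists were chosen with earlier results of these data known.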

How the data were processed

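The authors deposited 1 table of TPM and 1 of FPKM, per the file headers; the submitters' processing notes name the build mm39. The aligner, quantifier, annotation and strand setting are not given. Within a library, the summed TPM was 3.08 to 3.14 times the summed FPKM. Whole-read steps were looked for among low values and were not seen, so depth is unknown and no counting interval is printed.

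Groups and replicate numbers came from the sample titles. In R 4.3.3 with limma 3.58.1, log2(TPM + 1) was fitted for genes averaging 1 TPM or more (lmFit, eBayes with a trend), with no covariate and Benjamini-Hochberg adjustment over all 11359 genes; fold changes on this scale understate the change of low genes, and SE and 95% intervals come from that fit. The fit was tested on simulated data. The alternatives, 14 in all, were other pseudocounts (0.1 and 0.5), no filter on low values, a 5 TPM minimum, the FPKM table, median-of-ratios scaling, quantile normalization, eBayes without a trend or robust, a replicate block, and each library left out, where a lone library takes its spread from the other group. Members and lists were chosen with earlier results of these data known. Named genes are the 32, Cxcl14, and up to 4 called genes per further list with the largest change, unless said otherwise.

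With blastn 2.17.0 on GENCODE M21 transcripts, 2 of the 32 genes, Dnajb9 and Derl1, had a pseudogene match of at least 97% identity over at least 100 bases, so their values are uncertain. In that annotation 9 genes (Hsp90b1, Pdia3, Pdia4, Pdia6, Dnajb9, Manf, Eif2ak3, Syvn1 and Derl2) overlap an exon of another gene. The overlaps of Hsp90b1, Pdia4 and Manf include genes on the same strand, and reads of overlapping genes may be mixed. RefSeq promoters are of GRCm38.p6, a build earlier than that of the tables.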

Additional observations from a re-analysis of the deposited data

How the results depend on the processing

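Of the 26 called genes of the set, 17 kept direction and call in all 14 alternative settings, 3 lost the call only with no filter on low values (Calr, Creld2 and Atf6b), and 6 lost it on leaving out a library (Dnajb11, Dnajc3, Sdf2l1, Edem1, Edem2 and Edem3). Of these 6 all but Dnajb11 were also lost with no filter, Dnajc3, Sdf2l1 and Edem1 under median-of-ratios scaling, these and Edem3 with eBayes without trend, Dnajc3 and Sdf2l1 under quantile normalization, and Sdf2l1 with FPKM. Direction turned only for genes that had not passed: Canx at -0.040 under quantile normalization, Manf, which ranged from -0.19 without control replicate 1 to 0.077 without control replicate 2, and Derl2, which ranged from -0.010 to 0.17 on leaving out the same libraries. With no filter, which adjusts p over all 22186 listed genes, 2139 genes in the whole table were higher and 2767 lower, and the numbers lower were 8 in the set, 6 among chaperones, 1 among degradation factors and 22 in the 10 further ER lists. Leaving out each library in turn gave 11 to 13 higher and 10 to 14 lower in the set, and 1 to 2 lower among degradation factors.

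Same-numbered libraries did not deviate together (correlation of deviations -0.00526 across genes), so the numbers were not taken as pairs. With the replicate block 12 genes of the set were higher and 14 lower, and 3387 and 4114 of all tested genes. Depth is unknown, so no limit from counting can be given for low genes such as Derl3.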

Other observations

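Calcium in the ER lumen is needed by calreticulin, BiP and other chaperones. Of 11 tested genes that handle it 4 rose and 3 fell (median log2 change -0.10), beside 29.0% and 35.4% of all tested genes. Atp2a3, an ER calcium pump, 1 of the 4, had control values of 0.117 and 0 TPM and treated values of 5.15 and 5.62 TPM. It passed the minimum of 1 TPM only through the treated group, and its fitted log2 change ranged from 1.43 to 5.22 over 13 alternative settings, so no fold is given. Itpr3, a calcium release channel, fell from 54.4 and 49.1 TPM to 22.6 and 20.9 TPM (log2 fold change -1.21), and Stim1, the sensor of ER calcium, from 32.8 and 33.3 TPM to 20.6 and 19.3 TPM (-0.70). The widely expressed pump Atp2a2 rose from 274 and 263 TPM to 374 and 391 TPM (log2 fold change 0.51).

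Of 8 receptors of ER-phagy, the delivery of ER fragments to lysosomes, 1 rose and 3 fell (median log2 change -0.08). Of all tested genes 29.0% rose and 35.4% fell. Tex264 rose from 97.9 and 91.0 TPM to 226 and 232 TPM (log2 fold change 1.27, limma adjusted p = 3.2e-07). Calcoco1 fell from 104 and 109 TPM to 59.0 and 64.9 TPM (log2 fold change -0.77), and Ccpg1 and Retreg1 fell by 0.51 and 0.35 on the log2 scale, the former not called with no filter on low values (limma adjusted p = 0.079).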
